A study of Mus musculus with 2 samples.

Results

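Processed pseudogenes were examined in total RNA of the mouse embryonic midbrain, and 179 of them had signal. The members were chosen by their measured level: a gene typed as processed pseudogene in GENCODE M21 was taken if its deposited TPM (a share of all transcripts, corrected for length and scaled to a fixed total) reached 5 in both libraries. Of 43346 Ensembl genes quantified, 5349 were processed pseudogenes, of which 179 (3.35%) passed and 5170 did not. Levels of the members in these 2 libraries are therefore a description, and no test was made with them. The tissue came from embryos of strain B6NCrl at embryonic day 16.5, pooled over both sexes, in 1 group of 2 biological replicates. For replicate 2 the labels give 37 pooled embryos, and for replicate 1 no number. The libraries held 31830355 (replicate 1) and 36576263 (replicate 2) expected counts, in which a read that fits several genes is divided among them. En1, a gene of the midbrain and its border with the hindbrain, stood at 4.99 and 6.34 TPM in replicates 1 and 2, and Th, of dopamine neurons, at 15.1 and 24.0 TPM. En2, patterned like En1, was low at 0.610 and 0.460 TPM, and Hoxb4, of the hindbrain and spinal cord, was at 0 in both. With a single group, no p-value is given anywhere.

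A processed pseudogene arises when a spliced mRNA is copied back into DNA and inserted at a new place in the genome. The copy carries no introns and usually no promoter of its own, and genes with abundant mRNA in the germ line, such as those of ribosomal proteins, have left the most copies. A young copy is nearly letter for letter the mRNA of its parent gene, so a short read from one fits the other as well. Old copies have collected substitutions, insertions and deletions, and a read over such a difference can be placed.

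The structure of the members was that of reversed transcripts. The M21 type that chose them stands for such a structure, so this only checks the label. Of the 179 members, 176 had 1 exon and 3 had more, whereas 176 of their parent transcripts had at least 2 exons, with a median of 5. A parent was the protein-coding gene with the best blastn hit of the pseudogene's transcript, and each of the 179 had one. Calling a member a copy of a gene means only this best match. The best match need not be the gene whose mRNA was copied, and whether a parent is itself a copy was not tested. RefSeq, matched by symbol for 161 members, listed 147 as pseudogene, 10 as transcribed pseudogene and 4 as protein-coding, the last being Gm10509, H3f3c, AA414768 and Ndufb4c. These 4 go against the label, and they were kept because the M21 type set the rule.

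The sequences of a few members show how much there is to tell them from their parents. They are GENCODE M21 transcript letters on GRCm38 (mm10), 5′ to 3′ in sense, with letters that differ between the members of a pair in capitals. Gm12338 (chr11:75599763-75599954, minus strand, 1 exon) was shown because it was among the 5 highest members, and it was the whole coding sequence of Cox7c, a cytochrome c oxidase subunit, with no difference.

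Gm12338: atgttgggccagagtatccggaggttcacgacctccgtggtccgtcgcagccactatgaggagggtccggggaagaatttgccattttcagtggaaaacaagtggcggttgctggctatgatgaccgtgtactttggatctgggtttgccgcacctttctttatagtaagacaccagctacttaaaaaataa

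The next set holds members of several levels that differ from the parent at few positions, in stretches of 100 bases around the differences. Gm15387 (chr15:74094234-74094333, minus strand) copies Hmgb1, a chromatin protein. H3f3c (chr2:119665862-119665961, minus strand) copies the histone gene H3f3a, Gm11223 (chr4:69925757-69925856, minus strand) copies Stmn1, which regulates microtubule turnover, and Gm12715 (chr4:103564212-103564311, plus strand) copies the actin gene Actg1. Counted from the A of the parent's start codon, with the parent's base first, the substitutions in these windows were A21G in Gm15387, G76A, T135C and C144A in H3f3c, A274G in Gm11223, and T858C, G861T and T864C in Gm12715.

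Gm15387: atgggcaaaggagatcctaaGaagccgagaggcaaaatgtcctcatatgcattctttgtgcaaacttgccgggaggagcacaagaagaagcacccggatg
Hmgb1: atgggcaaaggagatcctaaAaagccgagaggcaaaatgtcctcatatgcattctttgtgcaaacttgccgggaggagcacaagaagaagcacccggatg
H3f3c: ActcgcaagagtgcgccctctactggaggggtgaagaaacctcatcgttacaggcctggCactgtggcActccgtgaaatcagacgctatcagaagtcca
H3f3a: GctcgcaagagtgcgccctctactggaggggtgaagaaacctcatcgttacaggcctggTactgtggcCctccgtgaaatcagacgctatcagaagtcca
Gm11223: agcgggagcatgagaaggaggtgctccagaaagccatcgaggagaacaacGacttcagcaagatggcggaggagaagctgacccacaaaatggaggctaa
Stmn1: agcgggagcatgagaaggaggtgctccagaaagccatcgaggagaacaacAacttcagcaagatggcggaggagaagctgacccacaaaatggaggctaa
Gm12715: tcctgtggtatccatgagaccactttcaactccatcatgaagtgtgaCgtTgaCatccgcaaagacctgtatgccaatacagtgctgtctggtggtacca
Actg1: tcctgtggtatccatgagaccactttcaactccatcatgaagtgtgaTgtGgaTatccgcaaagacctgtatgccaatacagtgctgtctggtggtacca

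The last set holds diverged members, shown because a read from them can be told from the parent at any place. Gm7805 (chr17:21964236-21964335, minus strand) copies Mrpl20, a mitochondrial ribosomal protein gene, and Gm13204 (chr4:148569085-148569184, minus strand) copies Rps2. Each of these differed at 11 of 100 positions. The stretch shown was the one with the most scattered differences, so this is not the share over the whole copy.

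Gm7805: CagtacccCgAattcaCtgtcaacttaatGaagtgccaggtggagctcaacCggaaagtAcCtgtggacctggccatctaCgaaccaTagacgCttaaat
Mrpl20: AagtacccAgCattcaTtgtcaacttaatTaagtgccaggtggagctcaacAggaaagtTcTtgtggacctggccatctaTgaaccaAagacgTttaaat
Gm13204: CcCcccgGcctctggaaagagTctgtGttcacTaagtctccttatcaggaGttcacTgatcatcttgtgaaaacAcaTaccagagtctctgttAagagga
Rps2: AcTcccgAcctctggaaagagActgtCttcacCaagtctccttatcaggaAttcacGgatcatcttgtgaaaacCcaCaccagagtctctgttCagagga

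Levels among the members were uneven. The median was 24.8 TPM in replicate 1 and 20.8 TPM in replicate 2, and 118 members reached 10 TPM in both libraries, 53 reached 50 and 36 reached 100. Together the members held 1.82% and 1.75% of all TPM but 0.392% and 0.385% of expected counts, since most are short and a count on a short transcript is worth more TPM. The 10 highest members held 47.1% ± 0.216 (SD, n = 2) of the TPM of all members. Of the 5349 processed pseudogenes, 3179 (59.4%) had no count in either library, and 40 reached 5 TPM in 1 library only.

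Gm10123, a copy of Ppia on chr9:96895658-96896147, was the highest member at 3106 TPM in replicate 1 and 3067 TPM in replicate 2. Ppia encodes the abundant prolyl isomerase cyclophilin A, and it stood at 3318 and 3353 TPM. The copy alone made 17.1% and 17.6% of the TPM of all members. Gm14303, the copy of Rps29, followed at 1069 and 924 TPM, beside 796 and 763 TPM of the parent. Gm10221, a copy of the ATP synthase gene Atp5l, was at 712 and 711 TPM, above its parent at 154 and 178 TPM. Rps23-ps1, a copy of Rps23 of the small ribosomal subunit, was at 621 and 575 TPM, and its parent at 96.8 and 84.2 TPM. Gm12338 was at 581 and 576 TPM, beside 511 and 494 TPM of Cox7c. In each of these 5 members the libraries lay within 1.2-fold of each other, and none of the 5 holds a 100-base stretch that is not also in another annotated gene. For Gm10221 this was read from an M21 transcript of 309 bases, where the one quantified had 422.

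**Figure D1:**
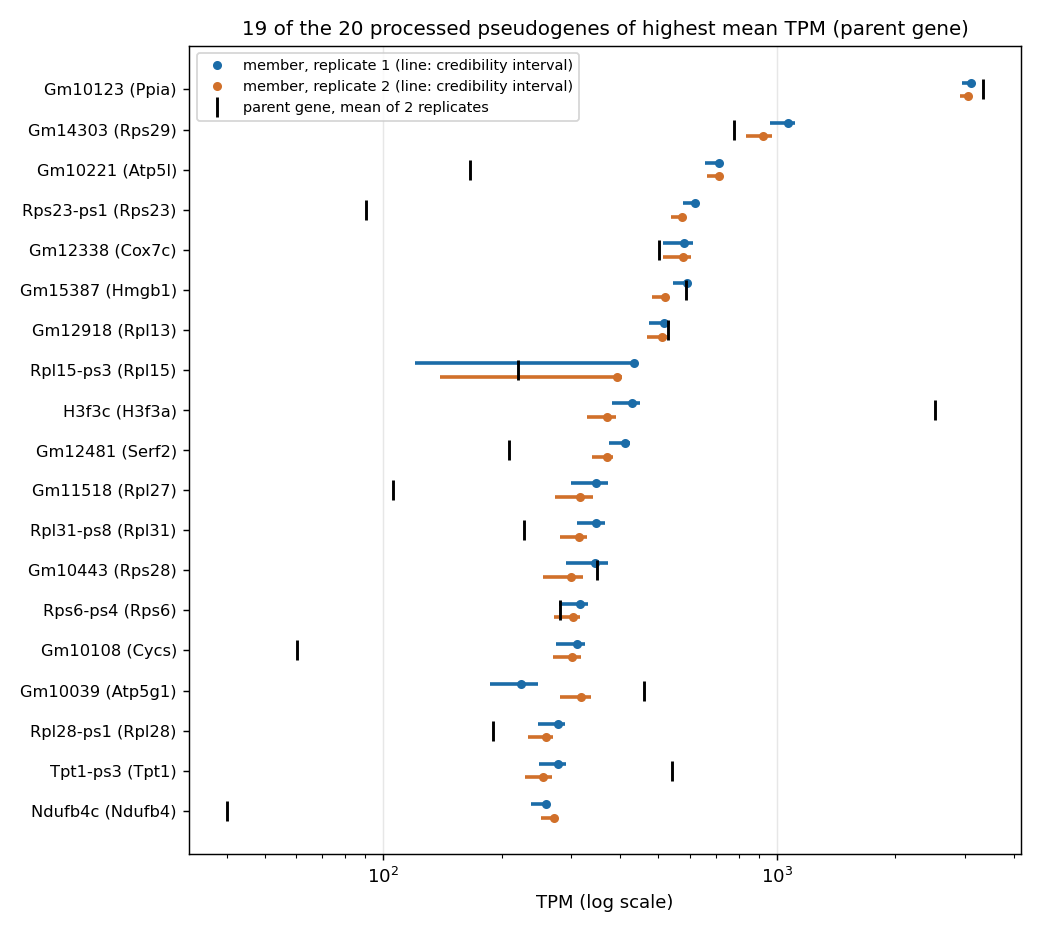
TPM on a log scale of 19 of the 20 members of highest mean TPM, by replicate, with the deposited credibility interval as a line and the mean TPM of the parent gene as a black tick. Gm10123 lies at 3106 and 3067 TPM next to Ppia, while Rps23-ps1 and Ndufb4c lie to the right of their parents, and Rpl15-ps3 has the widest interval.

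To see which members the reads could identify, each transcript was divided into its overlapping 100-base words, and a word found in no transcript of another gene was called an own word. The deposited effective lengths are the lengths less 99 bases, as for reads of 100 bases, so a 100-base word stands for one possible read start. Of the 179 members, 60 had no own 100-base word, 107 had some and 12 had only own words. Among the processed pseudogenes under the threshold, 160 of 5156 with such a word had none of their own (3.10%) and 3398 had only own words (65.9%). The median share of own words was 23.6% in members and 100% in the others. The 60 members without an own word held 75.2% and 74.5% of the TPM of all members in the 2 libraries, the 107 with some held 24.2% and 24.8%, and the 12 with only own words held 0.639% and 0.651%. Expected counts divide reads among like copies, and the part of this in the levels that chose the members was not tested.

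With 31-base words the picture had the same order. The median share of own words was 6.85% in members, with quartiles of 0% and 18.1%, and 81.4% in the others, with quartiles of 43.3% and 98.0%. At this length 91.3% of the words of the median member were found in protein-coding transcripts, against 7.19% in the others.

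**Figure D2:**
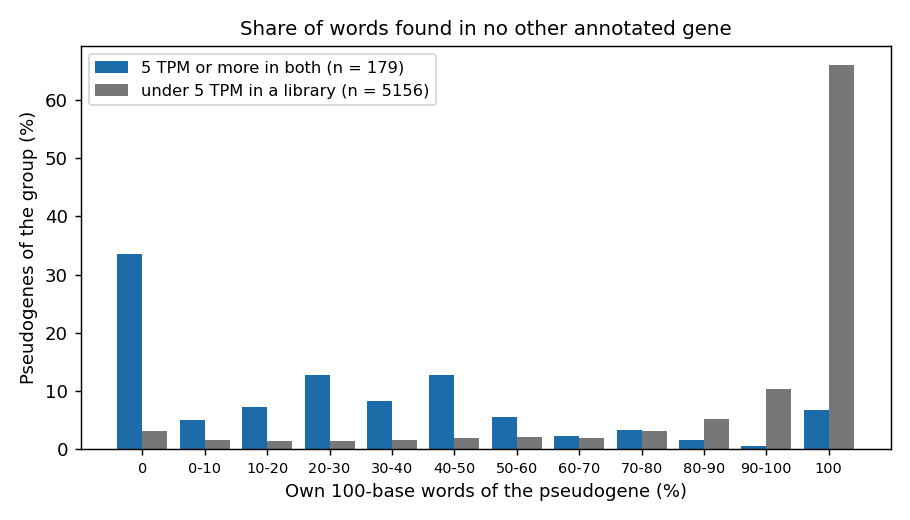
Percent of pseudogenes in each class of the share of own 100-base words, for the 179 members (blue) and for the 5156 processed pseudogenes under the threshold that are long enough to hold such a word (grey). Members peak at 0 and the others at 100%.

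The share of pseudogenes that were members differed by identity to the parent. Of 2610 processed pseudogenes under 90% identity to the parent transcript, 5 were members, and of 1124 at 90 to 95% 4 were. The share rose to 1.57% (8 of 508) at 95 to 97%, 5.16% (30 of 581) at 97 to 99%, 21.5% (73 of 340) at 99 to under 100%, and 59.6% (59 of 99) at 100%. The median identity was 99.6% in members and 89.7% in the others. By the parent's level, at 100% identity 41 of 61 pseudogenes were members where the parent had a mean of 100 TPM or more, 15 of 25 at 10 to 100 TPM, and 3 of 13 under 10 TPM. At 99 to under 100% identity these counts were 59 of 201, 13 of 99 and 1 of 40. The order was not the same at lower identity: at 90 to 95% they were 0 of 698, 3 of 302 and 1 of 124, and under 90% they were 3 of 1593, 1 of 693 and 1 of 324.

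**Figure D3:**
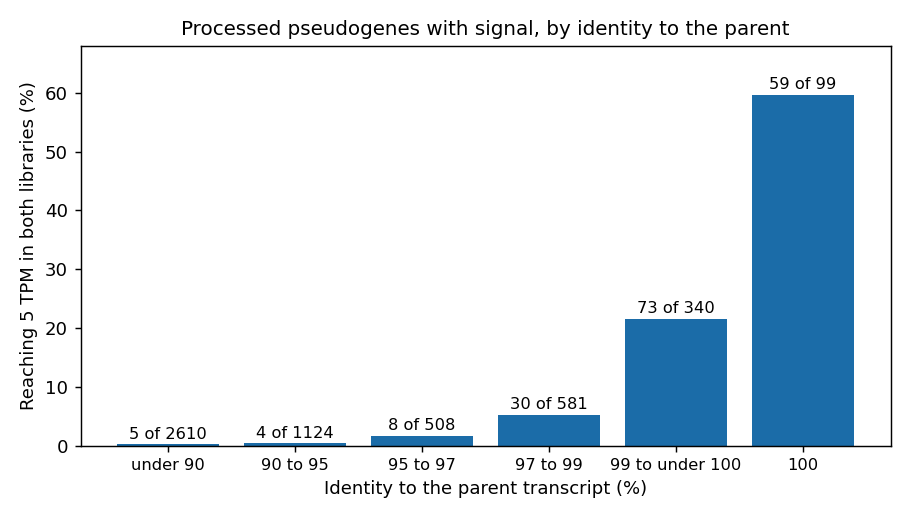
Percent of processed pseudogenes that reached 5 TPM in both libraries, by identity to the parent transcript, with the counts above each bar. The bars rise from 5 of 2610 under 90% to 59 of 99 at 100%.

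Some copies that could not be told from an expressed gene did not reach the threshold. All 100-base words lay in protein-coding transcripts for 57 members and for 35 other processed pseudogenes. Among those whose parent reached 50 TPM in both libraries, 48 were members and 15 were not, and 6 of the 15 had 0 counts in both. Having no own word is a looser mark, since the words may lie in another pseudogene and not in an expressed gene. Among all pseudogenes without an own 100-base word whose parent reached 50 TPM in both libraries, 51 were members and 77 were not. Of the 160 non-members without an own word, at any parent level, 105 had 0 counts in both libraries. Hmgn2-ps1, a copy of the nucleosome-binding gene Hmgn2, had 0 counts in both libraries, while Hmgn2 stood at 823 and 782 TPM. Gm12671, a copy of the glycolytic gene Gapdh, was at 3.47 and 1.27 TPM with Gapdh at 1122 and 1209 TPM, and Gm10052, a copy of Hnrnpa1, missed the threshold at 5.17 and 4.58 TPM. These 3 were chosen from the 77 after their values were seen. What separates them from the 51 members was not tested.

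Many members kept the parent's reading frame. A frame was counted only if its start and stop codons both lay inside the M21 transcript, so a transcript ending before either can hide one. The longest open reading frame was at least 90% as long as the parent's coding sequence in 91 members (50.8%) and in 553 of the others (10.7%), and it encoded exactly the parent's protein in 49 members (27.4%) and in 55 others (1.06%). The annotated transcript was the parent's coding sequence letter for letter in 38 members and in 5 others. Of the 49 members with the parent's protein, 40 had no own 100-base word. Gm12715 had 206 own words of 1029 and still encoded the protein of Actg1, and Gm11223 differed from Stmn1 in 1 residue. In 68 members the longest frame counted was under 50% of the parent's. Gm10123 was among them at 18.3%, although its transcript matched Ppia at every base and covered 99.6% of the Ppia coding sequence. Gm7536 was at 23.6%, although its 444 bases matched the whole coding sequence of Rpl27a up to the stop codon. How many of the 68 have a frame hidden in this way was not tested.

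Against their parents, members covered a wide range. The log2 ratio of member to parent TPM had a median of -2.96 in replicate 1 and -3.10 in replicate 2, over the 177 members whose parent was above 0. Averaged over the libraries for each member first, the log2 ratio had a median of -2.95, which is 12.9% of the parent. In both libraries 26 members exceeded their parent, and 84 were under 10% of it on average. The median ratio was -0.77 on the log2 scale for the 60 members without own words, -4.30 for members with some and -3.88 for those with only own words. Across the 179 members the rank correlation between own-word share and mean TPM was -0.56 (Spearman's rho, across genes of the same 2 libraries, which are not independent replicates).

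By the mean log2 ratio of the libraries, the 3 members furthest above their parents had parents of low level. Gm5884 was at 23.0 and 28.5 TPM with its parent Tom1 at 3.61 and 2.23 TPM, and Gm4735 at 25.7 and 23.7 TPM with the enolase gene Eno1b at 2.86 and 2.83 TPM. Gm6741 was at 31.01 and 22.53 TPM, and its parent Nanp differed between the libraries, at 1.26 and 11.2 TPM, so that its log2 ratio was 4.62 in replicate 1 and 1.01 in replicate 2. In replicate 2 it stood below Rps23-ps1 at 2.77 and Ndufb4c at 2.79. Ndufb4c, a copy of the complex I gene Ndufb4, was at 258 and 271 TPM, with Ndufb4 at 40.9 and 39.3 TPM. Gm10108 copies Cycs, the gene of cytochrome c, and was at 311 and 302 TPM, with Cycs at 58.7 and 61.8 TPM. This copy had 44 own words, 20.0% of its total. Both copies stood above the parent in each library. Gm11518 and Rpl27-ps3, both exact copies of the coding sequence of Rpl27, were at 346 and 317 TPM and at 239 and 221 TPM, and together they held 83.2% and 85.2% of the TPM of the Rpl27 parent and its members. Gm7536, a copy of Rpl27a, was at 249 and 248 TPM with its parent at 64.2 and 61.6 TPM. Gm16209 and AA414768 had parents at 0 TPM in both libraries, so no ratio can be given for them. Gm5884, Gm6741 and Rpl27-ps3 were quantified at 2259, 1330 and 475 bases, against 1479, 747 and 411 bases in M21. Their match to the parent was read from the M21 transcript only.

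**Figure D4:**
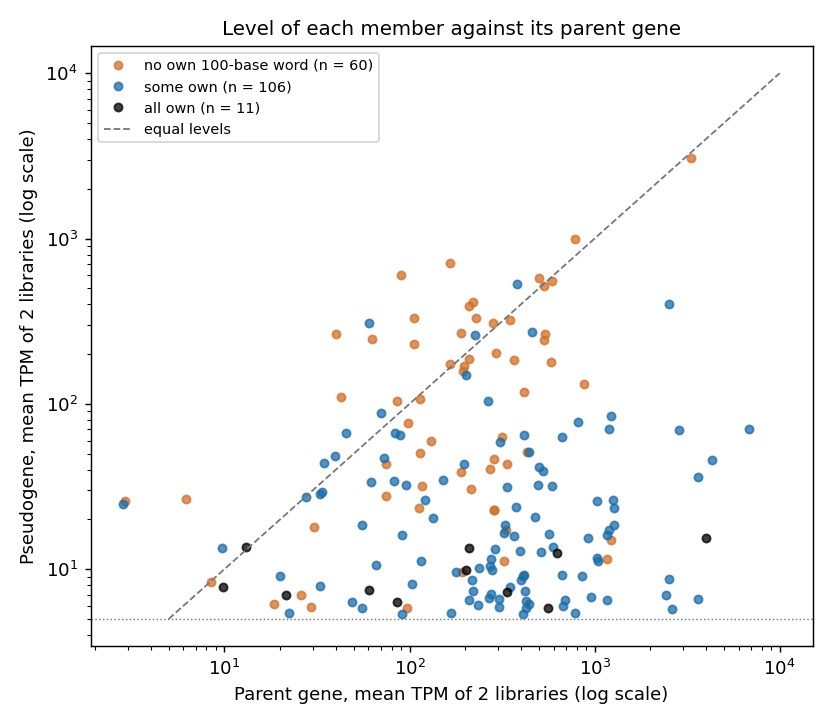
Mean TPM of each member against the mean TPM of its parent gene, both on log scales, for the 177 members whose parent was above 0, by own-word class. The dashed line marks equal levels and the dotted line the threshold of 5 TPM. Members without own words (orange) lie near or above the dashed line more often than the rest.

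By the function of the parent, copies of cytosolic ribosomal protein genes were the most numerous, with 47 members of 1427 processed pseudogenes. They were 26.3% of members and 26.7% of all processed pseudogenes, so their share among members was close to their share of the class, but they held 36.9% of the members' TPM. Their mean levels ran from 5.38 to 997 TPM with a median of 32.4. Of the 47, 19 had no own 100-base word and 16 encoded the parent's protein. Gm12918 was an exact coding copy of Rpl13 at 517 and 511 TPM, beside 543 and 516 TPM of the parent. Rps6-ps4, of Rps6, was at 315 and 304 TPM beside 303 and 261. Of 89 copies of Rps2, Gm13204 alone was a member, at 5.31 and 6.42 TPM.

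Copies of genes of the respiratory chain and ATP synthase gave 11 members of 140 (7.86%), with 12.5% of the members' TPM. Besides Gm10221, Gm12338, Gm10108 and Ndufb4c, Gm10039, a copy of the ATP synthase gene Atp5g1, was high, at 223 TPM in replicate 1 and 318 TPM in replicate 2. None of the 20 processed pseudogenes whose best match was a gene of the mitochondrial genome was a member. Copies of genes listed under chaperones and folding gave 6 of 151, and Gm10123 held most of their TPM. The list was broad and took in Ywhaz, an adaptor protein gene, whose copy Gm4202 is among the 6. Gm8355, a copy of the chaperone gene Hspa8, was at 71.7 and 67.4 TPM with 58.4% own words in its M21 transcript, which is longer (1941 bases) than the one quantified (756 bases).

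Copies of genes of chromatin and nuclear proteins gave 19 members of 388 (4.90%), with 10.6% of the TPM. Gm15387 was at 591 and 520 TPM, close to Hmgb1 at 616 and 557 TPM. Its identity to Hmgb1 was 99.85%, and it had no own word, so the words over the differing base are also in another annotated gene. H3f3c was at 428 and 371 TPM, far below H3f3a at 2659 and 2372 TPM, with 135 own words (43.3%). Gm8203, an exact coding copy of the histone gene H2afz, was at 183 and 173 TPM. Copies of the cytoskeletal genes gave 9 of 93 (9.68%) and stood at 6.61 to 70.3 TPM on average. Gm6682 was above its parent, the tubulin gene Tuba1c, at 14.18 and 12.71 TPM against 10.06 and 9.44 TPM, and the other 8 were at or under 2.52% of theirs. The list left out Dynlt1a and Actr3, whose copies are members and stood above that percentage. Dynlt1-ps1, the copy of Dynlt1a, was at 172 and 201 TPM with its parent at 206 and 213 TPM. The copy of Actr3 was at 8.28 and 10.87 TPM with its parent at 203 and 183 TPM. Gm11223 was at 72.8 and 67.7 TPM with Stmn1 at 7228 and 6475 TPM, and Gm12715 at 35.8 and 36.0 TPM with Actg1 at 3628 and 3597 TPM.

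Copies of the glycolytic genes listed gave 5 members of 373 (1.34%). The list left out Eno1b, whose copy Gm4735 is a member. Of 318 processed pseudogenes with Gapdh as parent, 3 were members. Gm12070 was at 17.19 and 14.95 TPM, Gm10359 at 11.9 and 11.3 TPM and Gm14760 at 5.87 and 7.14 TPM, each far below Gapdh. Pgam1-ps2, an exact coding copy of Pgam1, was the highest of the 5 at 56.9 and 45.8 TPM. Genes listed under translation factors gave 5 of 104, ubiquitin and proteasome genes 6 of 122 and ferritin genes 1 of 17, with Ftl1-ps1 as its best match. The first of these lists was broad and took in Tpt1 and Naca, which are not translation factors in the strict sense. Tpt1-ps3, the copy of Tpt1, was at 277 and 254 TPM. The other 70 members had parents of other kinds.

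The credibility interval that the quantifier gives with each TPM was wide in many members. The upper bound was at least 2 times the lower in both libraries in 53 of 179 members (29.6%), against 1.24% of the 11274 genes of any type at 5 TPM or more in both, and 0.319% of the protein-coding ones. The median ratio of upper to lower bound was 1.74 and 1.67 in members and 1.15 and 1.14 over those genes. At a threshold of 10 TPM, 19 of 118 members had such an interval, and no share over all genes is given at that threshold. Members and the genes of any type were not matched for count or length, and what these add to the width was not tested. Gm10163, a copy of Rpl21 without own words, had the widest, from 0.000281 to 41.9 TPM in replicate 1 and from 0.000215 to 21.4 TPM in replicate 2. Its deposited TPM, 52.6 and 28.7, lay above its own upper bound in both libraries, as did that of Gm10123, whose interval was narrow, 2951 to 3071 TPM in replicate 1. This held for these 2 members (1.12%) and for 6.48% of all genes at that level. Rpl15-ps3, a copy of Rpl15, had the widest interval of the 15 highest members, 120 to 426 TPM in replicate 1 and 139 to 405 TPM in replicate 2. Its TPM was 433, above the upper bound, in replicate 1 and 394, below it, in replicate 2.

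The posterior SD of the count, set against the square root of the expected count that counting alone would give, was at least 3 times as large in both libraries in 14 members (7.82%), against 0.497% of genes at that level. Rpl15-ps3 led with 12.5 and 12.2 times. Gm15801 and Gm8783, 2 identical copies of the phosphatase gene Ptp4a1 on chromosome 19, had the same expected count in each library, 194 and 188, with ratios of 7.64 and 8.66 in Gm15801. The median was 2.03 and 2.01 in members without own words, 1.43 and 1.47 in those with some, and 0 in those with only own words. Intervals did not follow the same order. The median ratio of the bounds was 1.49 and 1.41 in members without own words. It was 1.81 and 1.77 in those with some and 1.81 and 1.83 in those with only own words, and levels were lower in both of these classes.

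**Figure D5:**
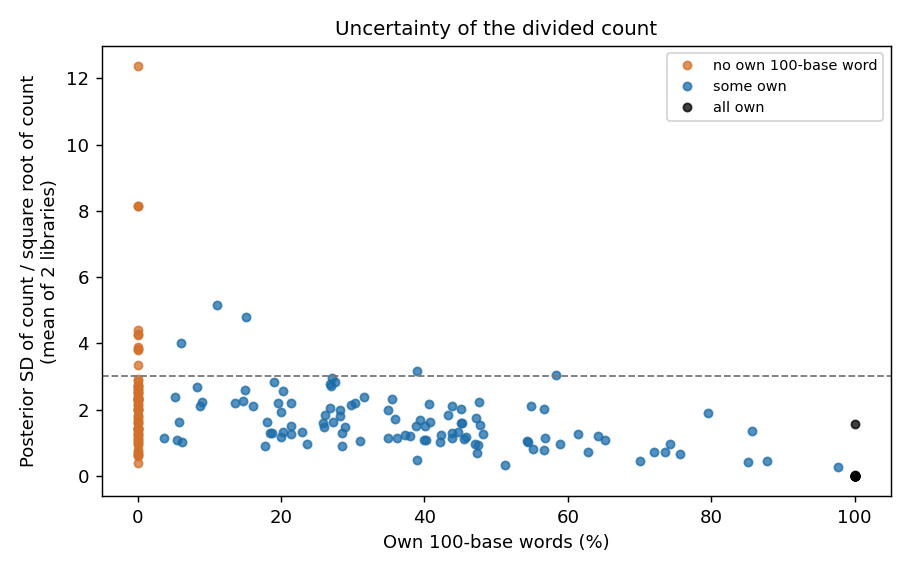
Posterior SD of the count divided by the square root of the expected count, mean of 2 libraries, against the share of own 100-base words, for the 179 members by own-word class. The dashed line marks 3. The highest point, at 0% own words, is Rpl15-ps3, and 10 of the 12 members with only own words lie at 0.

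The 12 members with only own words shared no 100-base sense word with another M21 gene. In 10 of them the posterior SD was 0 in both libraries as in 67.0% of all genes at that level. All 12 were low, at 5.87 to 15.5 TPM on average. Gm7805 had 85 and 102 counts and 13.2 and 13.6 TPM, beside 206 and 215 TPM of Mrpl20. Gm12328, a copy of the ubiquitin gene Ubb, had 26 and 35 counts at 14.3 and 16.6 TPM, and Gm13204 71 and 100 counts. Gm12808, whose best match was the cell cycle gene Cdc20, had 42 and 43 counts at 7.44 and 6.54 TPM, and Gm19932, a diverged copy of Cycs, 24 and 42 counts at 6.01 and 9.02 TPM. For Gm10509, Rpl39-ps and Gm19932 the M21 transcript differs in length from the one quantified, so their own words may not be those of the deposited values.

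Some members lay inside other genes. A protein-coding gene on the same strand contained 24 members (13.4%) and 488 of the others (9.44%), and one on the opposite strand contained 41 (22.9%) and 838 (16.2%). Of the 24 hosts in sense, 17 reached 5 TPM in both libraries. The same share for the hosts of the 488 others is not given, so this does not set the members apart. Pdcd5-ps, an exact copy of Pdcd5 inside the potassium channel gene Kcnk2, was at 172 and 167 TPM with the host at 19.9 and 20.0 TPM. Ndufb4c lay inside Mroh5, which was at 0.1 and 0 TPM. Gm13509, a copy of the clathrin adaptor gene Ap2m1 with 312 own words (25.8%), was at 77.2 and 77.4 TPM inside Mbd5 at 25.3 and 23.4 TPM. Gm13525, with only own words, was at 7.42 and 5.26 TPM inside the kinesin gene Kif5c, which was at 178 and 162 TPM. Total RNA holds unspliced transcripts, and whether reads from a host's intron add to a member was not tested. Within 5000 bases after a same-strand protein-coding gene lay 2 members, and the number among the others is not given. Gm12328 was 2729 bases behind the olfactory receptor gene Olfr389, at 0 TPM in both libraries, and Gm6682 was 3357 bases behind Pfn4, at 10.88 and 13.08 TPM.

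Between the pools most members differed by less than 2-fold. The ratio of replicate 2 to replicate 1 was computed on scaled counts (TMM, 0.5 added) for members whose mean expected count reached 10, which all 179 did. In all, 2 of 179 members (1.12%) were 2-fold higher in replicate 1 and 0 were 2-fold higher in replicate 2. Over the 11255 genes of any type at the same level and count, 0.142% and 0.0977% were, and over all 17773 genes with that count 1.32% and 1.48%. The median size of the log2 ratio was 0.19 in members and 0.10 in genes of that level. Gm13392, a 150-base copy of part of Bri3, was at 52.35 and 15.65 TPM from 49.4 and 17.2 counts, a fitted 3.19-fold difference, while Bri3 was at 83.3 and 81.2 TPM. Gm14719, a copy of Ppdpf, was at 43.2 and 19.5 TPM, with its parent at 338 and 337 TPM. The intervals of the libraries overlapped in both members.

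The TPM intervals of the libraries did not overlap in 6 members (3.35%), against 24.1% of the genes at that level, whose intervals are narrower. Gm10039 was higher in replicate 2, at 223 and 318 TPM, while Atp5g1 was at 473 and 446 TPM. Gm15387, Gm8186, Rps13-ps2 and Gm12696 were among those higher in replicate 1. Rps13-ps2, a copy of Rps13, was at 211 and 160 TPM with its parent at 373 and 363 TPM.

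At the threshold itself, Gm13586 (5.69 and 5.07 TPM), Gm6166 (5.07 and 5.79 TPM) and Kansl2-ps (5.10 and 5.64 TPM) were just inside. Gm14756 (7.67 and 4.93 TPM), Gm5915 (8.17 and 4.88 TPM) and Gm6104 (4.86 and 5.72 TPM) were just outside.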

How the data were processed

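Total RNA of 2 libraries was used, with 1 gene table each. Per the labels, both libraries had an input of 10 ng of RNA and a minimum RNA length of 200 nucleotides. Per the deposited readme, the tables use mm10 and GENCODE M4; aligner and quantifier: not given in the sources used here. Per the file headers, the deposited expected counts are estimated reads per gene without normalization, the deposited TPM is corrected for effective length and scaled to a fixed total, and the deposited FPKM is scaled by length and reads. The deposited credibility bounds and posterior SD of the count were treated as scores of the quantifier, whose level the authors do not state. Per the labels, a linked manual is that of a SMARTer Ultra Low kit, a kind that does not mark strand, but strandedness itself is not stated; if reads carry no strand, those of a member and of a gene on the opposite strand cannot be told apart.

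Types, coordinates and transcript letters came from GENCODE M21 (same assembly, GRCm38), joined on the Ensembl identifier without version; 884 identifiers had no match. The M21 transcript had the quantified length in 132 members and another in 47. Parents came from blastn 2.17.0 (plus strand, e-value limit 1e-10) among protein-coding transcripts of genes not overlapping the member; the best hit was a single gene in 172 members. Own words were counted in the sense strand of all M21 transcripts, and on both strands for 31-base words only. Counts were rounded for TMM factors (edgeR 4.0.16) and, as an alternative, DESeq2 1.42.0 size factors. The word count and the 2-fold rule were tested on simulated data. Python 3.11.15 and R 4.3.3 were used.

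The members, gene groups and named genes were chosen with earlier results of these data known. Named genes were those at the extremes of TPM, own-word share, interval width and pool ratio (15 highest, 8 and 4, 5 and 5, 4 per direction), the 3 on each side of the threshold, up to 8 members in sense inside a gene, and their parents. Others, among them Gm8355, Gm8203, Gm10108, Gm10039, Gm5884, Gm4735, Gm6741, the Gapdh copies and the tissue genes, were picked with their values in view. A few members and sequences that the rule takes are not reported here.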

Additional observations from a re-analysis of the deposited data

How the results depend on the processing

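Most of the results varied here are counts or shares, which have no direction to turn, so only the size of each shift is given. The median log2 level against the parent stayed negative in every alternative. The number of members stayed within 1.5 times of 179: it was 199 when replicate 1 was left out and 199 when replicate 2 was, 201 by posterior mean TPM, 130 by FPKM and 124 when the lower credibility bound had to reach 5 TPM. The count of wide intervals, 53, was 73 to 83 with 1 library left out (83 without replicate 2), 126 and 19 at TPM thresholds of 2 and 10, and 110 and 12 with bounds 1.5 and 4 times apart. Uncertain counts, 14, became 55 with a limit of 2 times the square root. Counts at other bounds and limits are still of 179 members, and no share over all genes is given for these alternatives. The median share of own words, 6.85%, was 6.85% to 7.03% with 1 library left out, 11.3% and 2.92% at thresholds of 2 and 10, 11.8%, 18.2% and 23.6% with words of 50, 75 and 100 bases, 6.11% with words of both strands, and 6.13% over members of unchanged length, a choice made after seeing the data. The median log2 level against the parent, -2.95, was -3.32 to -3.18 with 1 library left out, -4.32 and -1.66 at thresholds of 2 and 10, and -2.74 over members of unchanged length. Members in sense inside a gene, 24, were 47 and 13 at those thresholds. Members 2-fold apart, 2, were 9 at a threshold of 2, 1 with a mean count of at least 50, and 13 at 1.5-fold. Lower thresholds change the set described, and the cause of the other shifts was not tested. No paired analysis was possible because there is a single group. Of the 132 members of unchanged length, 49 had no own 100-base word. Members with only own words rest on 18 to 220 counts, and some of higher TPM on as few, such as Gm13392 on 49.4 and 17.2.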
